A study of Mus musculus with 4 samples.

Results

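The 9 genes described here encode the core of the reelin pathway: *Reln*, its receptors *Vldlr* and *Lrp8*, and the adaptors *Dab1*, *Crk* and *Crkl*. The others are the kinase genes *Fyn* and *Cdk5*, and *Cdk5r1*, which encodes an activator of Cdk5. Members were chosen by the gene symbol that the annotation of the array gives to a probe, and all 26 probes with one of these symbols were kept, of 41174 probes and 18295 named genes in all. RNA came from dissected midbrain of mouse embryos at E12.5. The paper's results describe this material as mesodiencephalic and retromammillary tegmentum, so it was not midbrain alone. In the mutant embryos both *Lmx1a* alleles were dreher (*Lmx1a-dr/dr*), a spontaneous point mutation of this LIM homeodomain factor, and the controls were *Lmx1a-+/+*, both on a C57Bl/6J background. Each of the 4 mutant samples (replicates a to d) was a pool of 5 midbrains, and each was hybridized on 1 dual-colour Agilent array against a single pool of 20 wild-type midbrains. Replicates a and c had the mutant RNA in Cy3, and replicates b and d had it in Cy5, so that a difference between dyes and one between the pools of each orientation cannot be told apart. Every value is a log2 ratio of dr/dr over the wild-type pool. The wild-type RNA is therefore 1 control sample, whose own spread enters no test.

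Reelin is a large secreted glycoprotein that binds the lipoprotein receptors VLDLR and ApoER2, the product of *Lrp8*. Clustering of the receptors leads Src family kinases such as Fyn to phosphorylate the cytoplasmic adaptor Dab1, which then recruits Crk and CrkL and acts on the cytoskeleton and on cell adhesion. Cdk5 with its activator p35, the product of *Cdk5r1*, acts in parallel on neuronal positioning. The pathway is best known from the layering of the cerebral cortex, and in the midbrain the lateral migration of dopaminergic neurons into the substantia nigra is disturbed in mice that lack reelin or Dab1.

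Median spot intensities were 137.4 to 174.2 for Cy5 and 70.0 to 84.7 for Cy3, above median local backgrounds of 31 to 34, and from 78.2% to 98.9% of probes stood over 2 SD above background in a channel. Across probes, which are not independent replicates, r was 0.639 and 0.579 between arrays of like dye orientation and -0.342 to -0.290 between arrays of unlike orientation. A dye term was therefore fitted for each probe, and the standard errors (SE) below leave out the dye effect while the SD of the 4 ratios holds it. The mutated gene *Lmx1a* itself had ratios from -0.84 to -0.39, but a point mutation need not remove a transcript, so this probe is no check of the genotype. All 9 midbrain and dopaminergic marker genes were above background in both channels on all 4 arrays. In bulk tissue, fewer cells of a type and less RNA per cell cannot be told apart. Precision is limited by having 4 arrays, and nothing in the labels ties the mutant pools to separate litters. The p-values rest on the spread between pools of like dye orientation. A difference between pools of unlike orientation goes into the dye term.

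Of the 26 probes, 21 were above background in both channels on all 4 arrays. The other 5 were *Reln* probes 2 to 4, *Crk* probe 4 and *Dab1* probe 7, where a gene's probes are numbered from the brightest. In a single channel of an array, 78.2% to 98.9% of all probes were above background. Their share over all arrays and both channels was not counted. With limma and Benjamini-Hochberg adjustment over all probes, 0 of the 26 had an adjusted p under 0.05, against 0 (0%) of the 41174 on the array, and at an unadjusted p under 0.05 there were 5, of which 4 were lower and 1 higher, against 7036 (17.1%) on the array, 8.24% lower and 8.85% higher. At an adjusted p under 0.10 there was 1, against 0.605% of all probes. The permutation F2 test of the study's methods was rebuilt here from its description and compares the 4 ratios with 0 under a family-wise threshold. It called 1 of the 26, *Dab1* probe 4, against 113 probes (0.274%) in all, 0.189% lower and 0.085% higher. These are calls of the rebuilt test and not the counts that the paper reports. The median log2 ratio of the 26 was -0.01, beside 0.00064 over all probes, with 14 means below 0 and 12 above. On all 4 arrays 4 probes were lower in the mutant (8.02% of all probes were) and 0 were higher (8.06% of all probes were). The sign of the ratio followed the dye orientation, one way in Cy3 and the other way in Cy5, for 8 of the 26, against 33.6% of all probes.

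**Figure D1:**
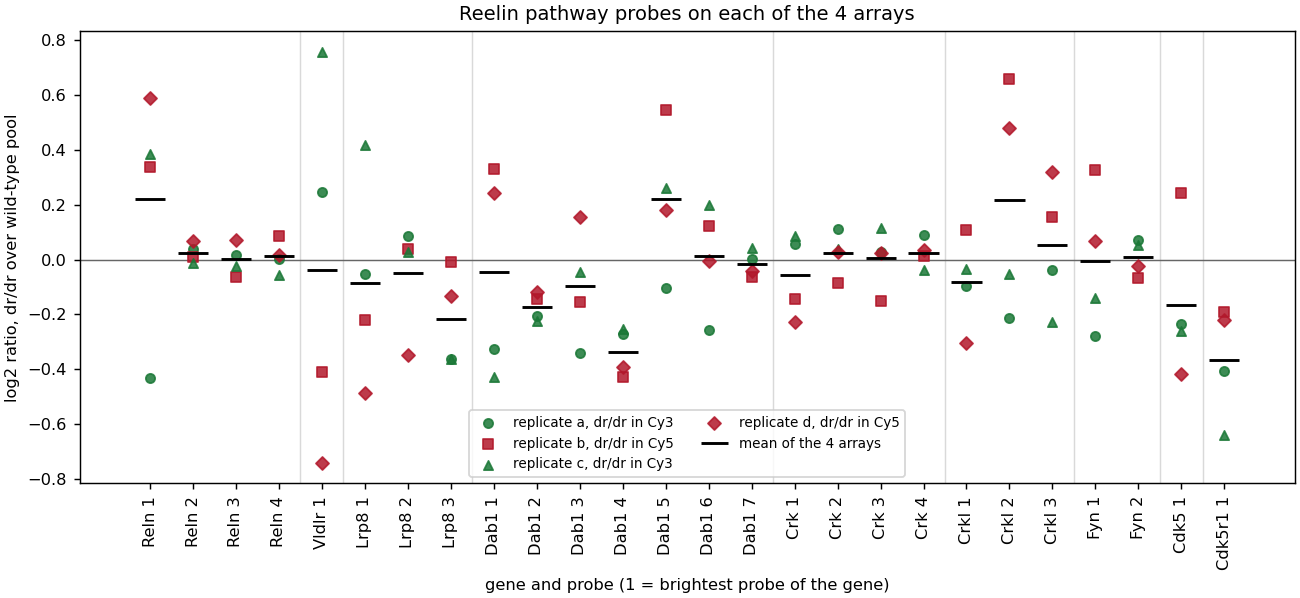
Log2 ratio of dr/dr over the wild-type pool (vertical axis) for each of the 26 probes (horizontal axis, grouped by gene, brightest probe first) on the 4 arrays, with the mutant in Cy3 in green and in Cy5 in red, and bars for the means. *Dab1* probe 4 lies between -0.43 and -0.25 in every replicate, whereas *Vldlr* spreads from -0.74 to 0.76 and separates by dye.

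*Dab1*, the adaptor that acts downstream of both receptors, was represented by 7 probes, more than any other member. Probe 4 fell by 0.34 on the log2 scale by the methods' permutation test. Its spot intensity before normalization was 105.7, 189.2, 103.2 and 208.4 in the mutant channel of replicates a to d, and 286.5, 117.2, 268.4 and 124.1 in the wild-type channel. The Cy5 channel was the brighter on each array, so these intensities can be set against each other only after normalization. The normalized log2 ratios were -0.27 in replicate a, -0.43 in b, -0.25 in c and -0.39 in d. All 4 ratios were below 0 in both dye orientations, with a mean of -0.26 for the mutant in Cy3 and -0.41 in Cy5. The mean was -0.34 (SD 0.088, SE 0.030, n = 4 arrays), or 79.2% of wild-type with a 95% interval of 75.0% to 83.6%. A larger ratio of either sign was seen for 1.03% of all probes. The family-wise permutation p was 0.0422, and limma gave an adjusted p of 0.0967. Lower *Dab1* was not established by the qPCR that the paper ran on the RNA samples. By in situ hybridization, the paper describes *Dab1* expression as slightly diminished, for the most part in rostral-lateral areas. It also reports a decrease in the lateral-caudal midbrain, and a supplementary legend describes loss in medial-rostral areas. *Dab1* is among the genes that the study selected on these same arrays, where it lists a log2 ratio of -0.34. The permutation call is therefore not independent evidence of its direction. The call was lost with each of the 4 arrays left out (permutation p = 1 each time), while the ratio itself stayed between -0.35 and -0.33. With 1 array left out this test called 0 to 5 probes in all, against 113, so the loss is not particular to this probe. The call was also lost with normexp background correction (permutation p = 0.141), with median centring (0.0874) and without dim probes (0.186). It was kept with the authors' table (0.0462) and from the median spot signal (0.0106), settings in which this test called 106 and 393 probes in all. Limma in turn called the probe with median centring (adjusted p = 0.0448), with an intensity trend (0.0310) and from the median spot signal (0.0104). In those settings limma called 167, 399 and 3051 probes in all, against 0 in the main setting.

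The other *Dab1* probes passed neither test, and their means lay between -0.17 and 0.22. Probe 2 was at -0.21, -0.14, -0.22 and -0.12 in replicates a to d, lower in each, with a mean of -0.17 (SE 0.029, limma adjusted p = 0.115). Probe 5 lay on the other side of 0 in 3 of 4 replicates, at -0.10, 0.55, 0.26 and 0.18, with a mean of 0.22 (SE 0.090, limma adjusted p = 0.321). Probe 1, the brightest, was at -0.33 and -0.43 with the mutant in Cy3 and at 0.33 and 0.24 with the mutant in Cy5. Its mean of -0.04 (SE 0.037, limma adjusted p = 0.635) thus averages ratios that turn with the dye. Probe 3 had a mean of -0.10, probe 6 of 0.01 and the dim probe 7 of -0.02, with limma adjusted p-values of 0.621 or more. Whether a probe differed from the other probes of its gene was tested with limma's diffSplice over all 24837 probes of genes with several. Probe 4 was 0.32 below the other *Dab1* probes on the log2 scale (difference -0.32, diffSplice adjusted p = 0.067) and probe 5 was 0.33 above them (diffSplice adjusted p = 0.0617), so neither difference passed the adjusted threshold, which 0.942% of those probes did. Over the members, 4 of 23 probes differed at an unadjusted p under 0.05, against 14.2% of all probes tested. The array annotation gives no position of a probe within the gene, so which transcripts each *Dab1* probe reads is not known here.

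The promoters of the members were read for the core letters that homeodomain proteins bind, since *Lmx1a* encodes one. RefSeq (GRCm38.p6) gave 11 windows, each from 250 bases before to 50 bases after a transcript start, for 7 of the 9 members and none for *Cdk5* and *Cdk5r1*. TAAT, searched on both strands so that it also appears as ATTA, was found in 4 of the 11, against 58.0% of 32851 windows of the same length, and TAATTA, which contains TAAT, in 1, against 5.29%. A match is a description of the letters and does not show binding. The *Dab1* windows are printed because the adaptor's probe 4 carries the only call of the permutation test among the members, and a *Vldlr* window because it holds the TAATTA. Matches are in capitals, and neither *Dab1* window holds one. *Dab1* has starts far apart on the plus strand of chromosome 4, at chr4:103619250-103619549 (57.3% G and C) and chr4:104367288-104367587 (77.3% G and C), and the *Vldlr* window is at chr19:27216234-27216533 on the plus strand (43.0% G and C, 7 matches of TAAT).
Dab1 first start: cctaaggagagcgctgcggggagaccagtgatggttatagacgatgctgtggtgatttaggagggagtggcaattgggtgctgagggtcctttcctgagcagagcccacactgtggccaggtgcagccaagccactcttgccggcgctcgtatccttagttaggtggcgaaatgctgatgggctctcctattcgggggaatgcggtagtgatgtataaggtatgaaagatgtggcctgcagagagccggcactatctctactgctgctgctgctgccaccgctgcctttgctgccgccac
Dab1 second start: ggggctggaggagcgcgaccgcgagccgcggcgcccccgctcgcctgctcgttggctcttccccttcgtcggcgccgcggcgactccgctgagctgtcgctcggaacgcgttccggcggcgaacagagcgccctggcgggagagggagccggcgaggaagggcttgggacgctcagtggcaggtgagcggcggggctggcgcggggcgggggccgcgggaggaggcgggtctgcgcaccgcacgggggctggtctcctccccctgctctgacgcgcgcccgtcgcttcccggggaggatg
Vldlr: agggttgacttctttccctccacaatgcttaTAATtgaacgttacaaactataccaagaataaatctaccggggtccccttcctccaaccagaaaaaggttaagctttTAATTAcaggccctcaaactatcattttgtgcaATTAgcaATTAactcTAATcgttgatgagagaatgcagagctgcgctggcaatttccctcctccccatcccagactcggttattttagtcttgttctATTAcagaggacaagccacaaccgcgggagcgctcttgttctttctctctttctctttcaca

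*Reln*, the ligand, had 1 probe that was bright and 3 near background. The intensity of probe 1 ranged from 450.1 to 1980 in the mutant channel and from 423.7 to 1553 in the wild-type channel. Its log2 ratios were -0.43 in replicate a, 0.34 in b, 0.39 in c and 0.59 in d. Replicate a thus lay on the opposite side of 0 from the other 3, although replicate c had the same dye orientation. The mean was 0.22 (SD 0.449, SE 0.145, n = 4 arrays), with a 95% interval from -0.16 to 0.61 and a limma adjusted p of 0.540. The difference was smaller than the spread between the replicates. Without replicate a the mean was 0.43, and without replicate c it was 0.02, with limma adjusted p-values of 0.202 and 0.940. Probes 2 to 4 had means between 0.00082 and 0.026. Their spots were above background on 0 to 3 arrays per channel, so these ratios lie close to a comparison of backgrounds.

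No probe of a receptor gene passed either test. *Vldlr*, the very low density lipoprotein receptor, had 1 probe with ratios of 0.25, -0.41, 0.76 and -0.74 in replicates a to d. Both arrays with the mutant in Cy3 were above 0 and both with the mutant in Cy5 below it, with means of 0.50 and -0.58. The mean of the 4 was -0.04 (SD 0.670, SE 0.105), the 95% interval ran from -0.32 to 0.24, and the limma adjusted p was 0.920. The dye effect of this probe, -0.54 on the log2 scale, was the largest of the 26 in size. *Lrp8*, which encodes ApoER2, had 3 probes. Probe 3 was lower on all 4 arrays, at -0.36, -0.01, -0.36 and -0.13, though replicate b was close to 0. Its mean was -0.22 (SE 0.035, 95% interval -0.31 to -0.12), with a limma adjusted p of 0.114 and a permutation p of 1. The brighter probes 1 and 2 were at -0.09 (SE 0.095) and -0.05 (SE 0.071), with limma adjusted p-values of 0.741 and 0.814. Probe 3 did not pass the test against the other *Lrp8* probes (difference -0.15, adjusted p = 0.574).

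**Figure D2:**
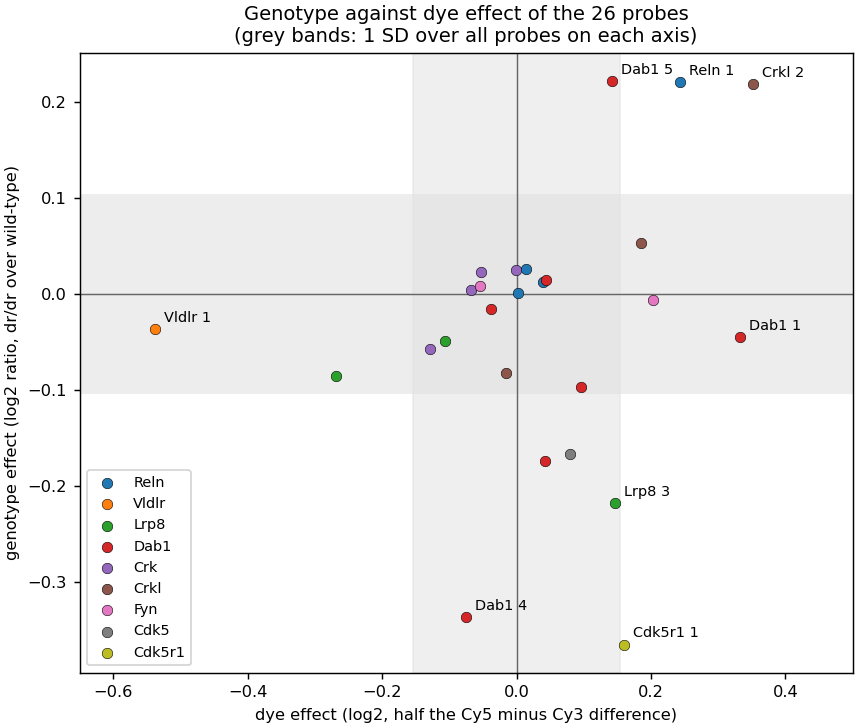
Genotype effect (vertical axis, mean log2 ratio) against dye effect (horizontal axis, log2) of the 26 probes, coloured by gene, with grey bands for 1 SD over all probes (0.103 for genotype and 0.154 for dye). *Dab1* probe 4 has a genotype effect of -0.34 at a small dye effect, and *Vldlr* probe 1, *Crkl* probe 2 and *Dab1* probe 1 have the largest dye effects in size.

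The adaptors *Crk* and *Crkl*, whose products couple phosphorylated Dab1 to the exchange factor encoded by *Rapgef1*, were at 0.22 or less in size. The brightest *Crk* probe was at 0.06, -0.14, 0.08 and -0.23 in replicates a to d, positive in Cy3 and negative in Cy5, with a mean of -0.06 (SE 0.033, limma adjusted p = 0.467). The other 3 *Crk* probes had means between 0.0044 and 0.025. *Crkl* probe 2 showed the opposite turn with dye, at -0.21 and -0.05 with the mutant in Cy3 and at 0.66 and 0.48 with it in Cy5. Its mean was 0.22 (SD 0.417, SE 0.049, limma adjusted p = 0.148), and its dye effect of 0.35 exceeded its genotype effect. *Crkl* probes 1 and 3 were at -0.08 and 0.05, with limma adjusted p-values of 0.676 and 0.695.

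Among the kinase and activator genes, *Cdk5r1* had the lowest mean of the 26 probes. Its product p35 is the neuronal activator of Cdk5. The spot intensity in the mutant channel was 696.6, 1890, 731.7 and 1804 in replicates a to d, and 2473, 743.8, 3311 and 708.5 in the wild-type channel. The log2 ratios were -0.41, -0.19, -0.64 and -0.22. All 4 were below 0, and the arrays with the mutant in Cy3 (mean -0.52) were lower than those with it in Cy5 (mean -0.21). The mean was -0.36 (SD 0.208, SE 0.049, n = 4 arrays), or 77.7% of wild-type with a 95% interval of 71.0% to 84.9%. Only 0.726% of all probes had a larger ratio of either sign, yet *Cdk5r1* passed neither test, with a limma adjusted p of 0.105 and a permutation p of 0.431. From the median spot signal both tests called it (limma adjusted p = 0.0113). In that setting limma called 3051 probes in all and the permutation test 393, against 0 and 113 in the main setting. Its interval overlapped that of *Dab1* probe 4, so these lowest members are not ordered beyond their error. *Cdk5*, the kinase itself, was at -0.23, 0.24, -0.26 and -0.42, with replicate b above 0 and a mean of -0.17 (SE 0.114, limma adjusted p = 0.557). Without replicate b the mean was -0.33 and without replicate d it was -0.00072 (limma adjusted p = 0.266 and 0.999). *Fyn*, the Src family kinase that phosphorylates Dab1, had probes at -0.0064 (SE 0.057) and 0.0081 (SE 0.030), with limma adjusted p-values of 0.978 and 0.940. Both *Fyn* probes changed sign with the dye. The 95% intervals of the ratio were 89.7% to 110% and 95.2% to 106% of wild-type.

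**Figure D3:**
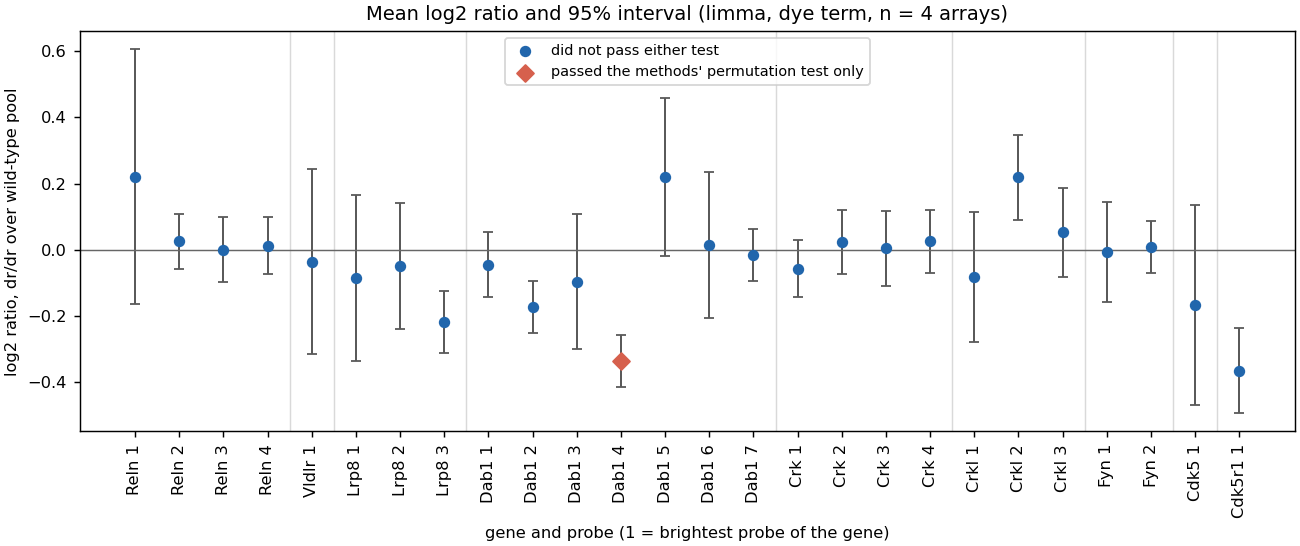
Mean log2 ratio (vertical axis, dr/dr over wild-type) with the 95% interval of the limma fit with a dye term (n = 4 arrays) for each of the 26 probes (horizontal axis). The diamond marks *Dab1* probe 4, called by the methods' permutation test, and the intervals of *Reln* probe 1 (-0.16 to 0.61) and *Vldlr* (-0.32 to 0.24) are among the widest.

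A wider list of 74 further measured genes around the pathway was compared. It holds other receptor ligands, proteases that cleave reelin, receptor partners, kinases, adaptors and exchange factors, cytoskeletal effectors, the machinery that degrades Dab1, and transcription factors of reelin-expressing or responding neurons. Limma called 0 of the 74 at an adjusted p under 0.05. At an unadjusted p under 0.05 the brightest probes of 15 genes were lower and of 5 higher, 27.03% of the list against 18.3% of all named genes, of which 1901 were lower and 1447 higher. The methods' permutation test called 1 lower and 0 higher gene, 1.35% of the list against 0.503% of all named genes (66 lower and 26 higher). The median over the brightest probes was -0.05, beside -0.0044 over all named genes.

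The called gene was *Cfl1*, which encodes the actin-severing protein cofilin, a target of LIM kinase downstream of reelin. Its called probe fell by 0.61 on the log2 scale (permutation p = 0.0012). The brighter *Cfl1* probe was at -0.49, -0.12, -0.54 and -0.14 in replicates a to d, with a mean of -0.32 (SE 0.030, permutation p = 0.075). Among brightest probes, the lowest mean of the list was that of *Tbr1*, a T-box factor of early cortical neurons including reelin-producing ones. Its ratios were -0.31, -0.98, -0.92 and -0.12, lower on each array but far apart, and the mean of -0.58 (SE 0.178) had a limma adjusted p of 0.220. The kinase gene *Gsk3a* (-0.44, SE 0.066, adjusted p = 0.107) and the guanine nucleotide exchange factor gene *Arhgef2* (-0.34, SE 0.096, adjusted p = 0.200) also had the same sign on all 4 arrays. Over all *Arhgef2* probes, means ran from -0.34 to 0.01. By limma none of *Cfl1*, *Tbr1*, *Gsk3a* and *Arhgef2* passed the adjusted threshold.

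At the other end of the list, *Gsk3b*, which encodes the second form of the tau kinase GSK3, was at 0.47, 0.08, 0.49 and 0.08. Its mean of 0.28 (SE 0.029) had a limma adjusted p of 0.097 and a permutation p of 0.316. *Gsk3a* and *Gsk3b* thus stood on opposite sides of 0 on all 4 arrays, and their difference was not tested. *Lrp2* and *Nectin3*, for a receptor of the same lipoprotein family and an adhesion molecule, were at 0.22 each (adjusted p = 0.117 and 0.310). *Wasl*, for the actin nucleation factor N-WASP, was at 0.19 (adjusted p = 0.347). Over all probes of the gene, means ran from -0.08 to 0.19 for *Wasl* and from -0.03 to 0.22 for *Lrp2*. They ran from 0.04 to 0.22 for *Nectin3* and from 0.08 to 0.29 for *Gsk3b*. By role, group medians ran from -0.10 for the 5 other ligands to 0.03 for the 6 genes of Dab1 turnover, in which 0 genes had an unadjusted p under 0.05.

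**Figure D4:**
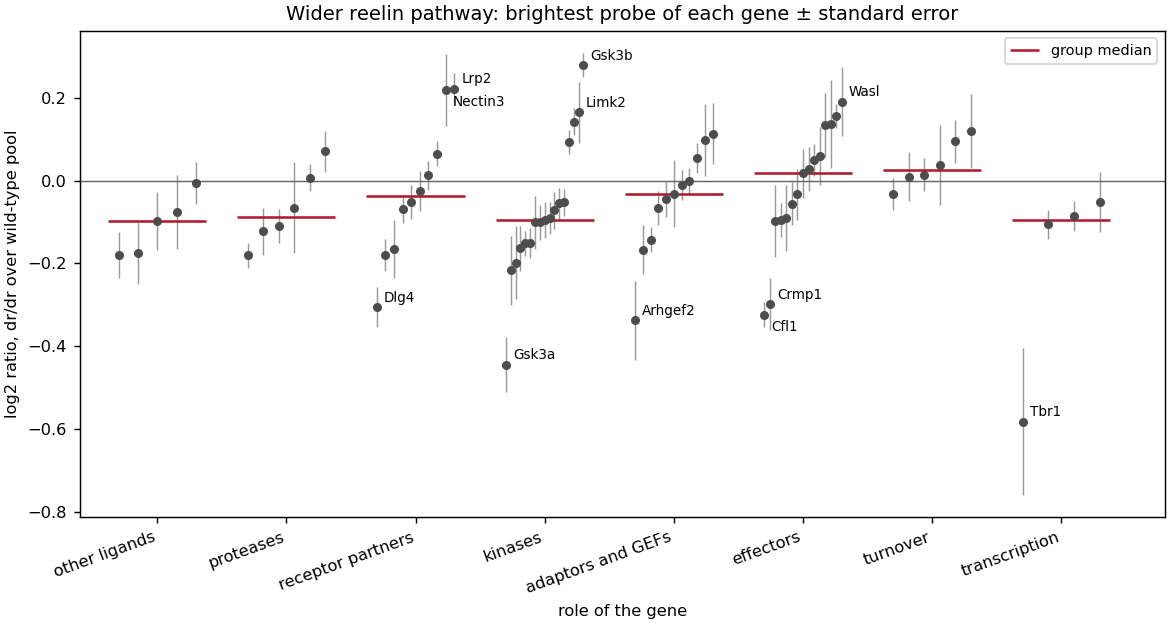
Log2 ratio, mutant over wild-type pool (vertical axis), of the brightest probe of each of the 74 wider genes, grouped by role (horizontal axis), with points for means over 4 arrays, grey lines for ± 1 SE of the limma fit and red lines for group medians. *Tbr1* lies lowest at -0.58 with an SE of 0.178, and *Gsk3b* highest at 0.28.

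Marker lists of the cell types that dissected midbrain can hold were measured beside these values. In the midbrain and dopaminergic list 3 of 9 genes fell by the permutation test, *Nr4a2* by 0.75, *Lmx1a* by 0.61 and *Th* by 0.55 on the log2 scale. Of all named genes, 0.503% had a probe called by this test. The 9 midbrain and dopaminergic genes had a median of -0.12, from -0.75 to 0.20, the highest being *Otx2*. The 6 neuron markers had a median of 0.06, from -0.35 to 0.19, and the 6 radial glia markers one of 0.07, from -0.01 to 0.23, with 0 called in either list. Markers of cortex and of Cajal-Retzius cells, which secrete reelin in the forebrain, were above background in both channels on all 4 arrays (3 of 3 measured). Their means were -0.58 for *Tbr1*, -0.10 for *Trp73* and 0.09 for *Emx1*, with 0 called. Among hindbrain markers *Hoxb2* was above background on 2 of 4 arrays in each channel and *Hoxa2* and *Hoxb4* on all 4. Endothelial, meningeal and blood or microglial lists had medians of -0.05, 0.08 and -0.05, and 0 of their genes were called. The part of tissue composition in the ratios of the reelin pathway genes was not tested.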

How the data were processed

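Total RNA from *Lmx1a-dr/dr* and wild-type midbrain was hybridized on 4 arrays in both dye orientations. The authors deposited the intensity of each spot and of its local background in both channels, as read with ImaGene and not normalized. They also deposited loess-normalized log2 ratios, whose columns run as dr/dr over wild-type and correlated at r = 0.964 to 0.982 with those used here. From the mean spot intensities, log2 ratios were computed without background subtraction, with 1 loess curve per array (span 0.3, 4 iterations, controls at weight 0, limma 3.58.1 in R 4.3.3). Of 45220 spots, 4046 controls were left out and no filter on dim probes was used. The annotation of the array gave 1 symbol to 34186 probes and none to 6988. Of 18322 symbols, 16254 were current in RefSeq (GRCm38.p6) and 2020 were updated.

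Each probe was fitted with lmFit and eBayes with genotype and dye as terms (2 residual degrees of freedom), and p-values were adjusted by Benjamini-Hochberg over all 41174 probes at a threshold of 0.05. The permutation F2 test of the study's methods (5000 shuffles of the residuals, family-wise p under 0.05) was rebuilt from its description. It was run in Python 3.11.15 with numpy 2.4.6 as an alternative, and "fell" in the text refers to it. Its p-values and those of limma compare the ratios with 0. An exact sign-flip test over 4 arrays cannot give a p under 0.125 (2-sided) and was not used. A probe counted as above background when it exceeded the local background by more than 2 SD. diffSplice set each probe against the others of its gene. The scripts were tested on simulated data. There the adjusted calls of diffSplice held a larger share of false calls than the threshold of 0.05 allows. The p-values and calls of diffSplice are therefore given as a description. The permutation test called 3 of 40974 unchanged simulated probes, where a family-wise threshold of 0.05 is meant to give none in most runs. It called 5 of 100 probes changed by 0.5 and 93 of 100 changed by 1.

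The members, the wider list and the marker lists were chosen with earlier results of these data known. Named were all probes of the members, the called genes of the wider list and the 4 lowest and 4 highest of its brightest probes, the 3 genes most like *Dab1* and *Reln*, and markers not above background. Other marker and probe values were chosen after they were seen. Tried in turn were the authors' table, normexp background correction (offset 50), median centring, the median spot signal, no dye term, removal of dim probes, an intensity trend, the brightest probe or the mean per gene, an adjusted p under 0.10, Holm adjustment and each array left out. The permutation test under other settings was added after the values were seen. Some items are not reported here.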

Additional observations from a re-analysis of the deposited data

Results flagged for a closer look

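Of the 26 probes, 1 had a single array far from the others. *Lrp8* probe 2 was at -0.35 in replicate d, whereas the other arrays lay between 0.03 and 0.09 (log2 ratio). The gap took 0.862 of the whole range, above Dixon's critical value for 4 samples. Chance flags about 1 in 20 groups.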

How the results depend on the processing

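Over the whole array, limma called 0 probes in the main setting, 167 with median centring (113 lower), 3051 from the median spot signal (1596 lower), 52 without dim probes (37 lower), 399 with an intensity trend (236 lower), 25 with the mean over a gene's probes (24 lower) and 249 at an adjusted p under 0.10 (163 lower). The permutation test called 113 (78 lower), 393 from the median spot signal (258 lower, with *Dab1* and *Cdk5r1* among them) and 0 to 5 with 1 array left out. Of the 26 member probes, 1 was called with median centring, with the intensity trend, at an adjusted p under 0.10 and by the permutation test, *Dab1* probe 4 each time, and 3 from the median spot signal, *Dab1* probes 2 and 4 and *Cdk5r1*. Of the 74 wider genes, 1 was called with median centring, without dim probes, with the gene mean and by the permutation test (*Cfl1*), 2 at an adjusted p under 0.10, 6 with the intensity trend and 23 from the median spot signal. A gene counted as called on any of its probes, so these counts cannot be set against the probe counts above. Apart from the main setting and the permutation test, the share of all named genes was not counted, and these counts are a description. *Dab1* probes 4 and 5 (2 probes) differed from the other probes of their gene by diffSplice with normexp and with the median spot signal, and probe 5 alone (1) in the authors' table. With 1 array left out, limma called 0 probes, members and wider genes.

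Values near 0 changed sign. *Crk* probe 1 was 0.076 and *Dab1* probe 1 was 0.0099 from the median spot signal. *Crkl* probe 1 was 0.063 with the gene mean and -0.18 to 0.021 with 1 array left out. *Fyn* probe 1 was 0.0040 with normexp, 0.013 with median centring, 0.036 from the median spot signal, 0.00082 with the gene mean and -0.071 to 0.058 with 1 array left out. *Vldlr* was 0.0056 with median centring and -0.16 to 0.092 with 1 array left out, where *Lrp8* probe 1 ran from -0.20 to 0.033. The cause was not tested. *Reln* probe 1 ranged from 0.02 to 0.43 and *Cdk5r1* from -0.42 to -0.31 and *Cdk5* from -0.33 to -0.00072 with 1 array left out. No paired analysis was possible because all 4 arrays form 1 group with a common reference. Spots near background limit the 5 dim probes.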

Other observations

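The genes whose brightest probe had the pattern over the 4 arrays most like that of the brightest probe of *Dab1* were *Cby2*, *Ghrh* and *Hmx3*, at Euclidean distances of 0.070, 0.085 and 0.086 (log2) among 18286 genes searched. *Cby2* was at -0.33, 0.32, -0.45 and 0.18 in replicates a to d, so this likeness is one of ratios that turn with the dye. For *Reln* the nearest genes were *Hnrnpr*, *H3c13* and *Elavl2*, at distances of 0.231, 0.281 and 0.293, each negative in replicate a and positive in the other 3. With 4 arrays in both patterns, these distances are a description.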
